A study of Mus musculus with 18 samples.

Results

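Complex I, NADH:ubiquinone oxidoreductase, was followed here through the transcripts of its nuclear subunits and of its Ndufaf assembly factors in the livers of 2 mouse models of obesity. The members were chosen by name, with earlier results of these data known. The rule took the genes of both count tables whose symbol begins with Nduf followed by a, b, c, s, v, af or ab and a number. This gave 51 genes of 40840, of which 43 carry a subunit name and 8 an assembly factor name, and 2 pseudogenes were left out. All mice were ovariectomized C57BL/6 females. DIO mice were wild-type animals made obese by a high-fat diet (fat giving 45% of the calories, with cholesterol at 0.2%). The leptin-deficient ob/ob mice were fed AIN-76A, the study's normal diet. Each model had a group given PaPE-1, a pathway preferential estrogen, at 300 µg per kg per day, a group given estradiol (E2) at 5 µg per kg per day, and a vehicle group, all by osmotic minipump for 6 weeks. Each of the 6 groups had 3 libraries, 18 in all, although the sample records state that 2 per group were sequenced. Diet and leptin genotype both differ between the models, and comparisons between libraries stay within 1 model. The doses of PaPE-1 and E2 differ, and their values stand side by side on that understanding.

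Complex I oxidizes NADH in the mitochondrial matrix and passes the electrons to ubiquinone while its membrane arm pumps protons. In liver it takes up much of the NADH that fatty acid oxidation and the citric acid cycle release. Its catalytic core subunits are shared with bacteria, those of the matrix arm being nuclear genes and those of the membrane arm being encoded in mitochondrial DNA. The accessory subunits surround the core, and the assembly factors, known mainly from human cells, help to build the complex without staying in it. The members described here are therefore the nuclear core subunits, the accessory subunits of both arms and the Ndufaf genes. Ndufa4, now assigned to complex IV, and its hypoxia-induced relative Ndufa4l2 carry the subunit name and were kept under it.

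Promoter sequence from RefSeq (GRCm38.p6, 250 bases before to 50 bases after each annotated start) was at hand for 42 of the 51 members. It was searched on both strands for the NRF1 motif GCGCNNGCGC and the YY1 motif AAGATGGCG, 2 factors known for promoters of respiratory chain genes, and for motifs of estrogen related and estrogen receptors. The windows below are examples from members named in the results, whether or not a test called them. Capitals mark the motif, each sequence reads 5′ to 3′ on the gene's strand, and the coordinates are of GRCm38.p6 and not of the build used for counting.
Ndufb4, NRF1 motif 22 bases before the start, chr16:37654373-37654398, minus strand: tcatatccGCGCAGGCGCagatgtgc
Ndufv2, NRF1 motif 15 bases before the start, chr17:66101557-66101582, minus strand: tcgtgagcGCGCGCGCGCcgtgcgtc
Ndufaf4, NRF1 motif 113 bases before the start, chr4:24897962-24897987, plus strand: agatgtctGCGCATGCGCctgtgcgg
Ndufa6, NRF1 motif from base 24 after the start, chr15:82354251-82354276, minus strand: gtggcaccGCGCGTGCGCacgctgaa
Ndufs7, YY1 motif from base 25 after the start, chr10:80249465-80249489, plus strand: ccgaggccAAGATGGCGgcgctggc
Ndufaf8, YY1 motif from base 11 after the start, chr11:120098936-120098960, plus strand: cagggcccAAGATGGCGgcgccctc

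The NRF1 motif stood in 11 of the 42 promoters (26.2%), 9 of subunits and 2 of assembly factors, against 7% of the 27025 genes with a promoter in the table. Ndufb4 held 3 such matches, and the matches of Ndufv2 overlapped each other. The YY1 motif stood in 6 promoters (14.3%), against 1.64% of all genes, and all 6 lay after the start on the gene's own strand. Ndufs6 held both motifs, which did not overlap. The motif of the estrogen related receptor ESRRA, TCAAGGTCA, was in 0 member promoters and 0.466% of all. The full estrogen response element, GGTCANNNTGACC, was in 0 member promoters and 0.074% of all. Medians of log2 fold change over vehicle were taken over the tested members with a promoter sequence. With PaPE-1 in DIO liver they were 0.46 with and 0.45 without the NRF1 motif, and 0.49 and 0.44 for YY1. With E2 in ob/ob liver they were 0.20 with and 0.25 without the NRF1 motif, and 0.25 and 0.20 for YY1.

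The libraries held 16651616 to 21703791 counted reads in DIO liver, and 10470665 to 17021370 in ob/ob liver. Levels are given as CPM, read counts scaled to a common library size with TMM factors, and tests are edgeR's quasi-likelihood test over the 9 libraries of a model, with p adjusted by Benjamini-Hochberg over all genes tested. Enough reads for a test were found for 48 members among 13884 genes in DIO liver and for 47 among 13433 genes in ob/ob liver. The members without a test were Ndufb4b, Ndufb4c and Ndufa11b in both models and Ndufs6b in ob/ob liver, which are copies of Ndufb4, Ndufa11 and Ndufs6 and whose reads cannot be safely told from those of their parents. Ndufb4b, Ndufb4c and Ndufa11b had 0 to 5 reads in a library, and Ndufs6b had 0 to 2 in ob/ob liver. The 10 hepatocyte markers, which check the liver label, summed to 91605 to 142042 CPM over the libraries of DIO liver.

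Per kilobase of exon, Ndufa4 was the most abundant member in DIO vehicle liver, at 539 ± 33.3 CPM per kb (SD, n = 3), followed by Ndufa6 at 265 ± 20.8 and Ndufb9 at 246 ± 14.6 CPM per kb, whose ranges overlapped. Of the core subunits, Ndufs3 stood at 101 ± 3.21, Ndufv1, which binds NADH, at 98.4 ± 8.87 and Ndufs1, the largest core subunit, at 44.1 ± 4.52 CPM per kb. The assembly factors ran from 1.92 ± 0.0447 CPM per kb for Ndufaf5 to 20.5 ± 0.905 for Ndufaf8 in the same libraries. In ob/ob vehicle liver Ndufa4 again led, at 878 ± 44.5, Ndufaf8 at 24.9 ± 0.342 and Ndufaf5 at 2.38 ± 0.38 CPM per kb. Ndufa4l2 was low throughout, at 1.62 ± 0.23 CPM per kb in DIO vehicle liver and 1.96 ± 0.426 in ob/ob vehicle liver.

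PaPE-1 in DIO liver was the comparison in which complex I transcripts stood highest against vehicle. Of 40 subunits tested, 39 had a log2 fold change above 0, with a median of 0.46. All 8 assembly factors were above 0, with a median of 0.38. Of all genes tested 47.1% were above 0, and their median was -0.03. In bulk liver a larger share of a cell type and more RNA per cell cannot be told apart. No member passed an adjusted p of 0.05, and neither did any other gene (0% of 13884). At an unadjusted p under 0.05 in edgeR, 28 subunits and 4 assembly factors were higher and none lower. Of all genes 11.4% were higher and 9.68% lower. In 35 subunits and 7 assembly factors every PaPE-1 library lay above every vehicle library, as it did in 16.4% of all genes.

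The smallest p-values belonged to an assembly factor and to accessory subunits. Ndufaf8, the partner of Ndufaf5 in human cells, had 19.8, 15.6 and 17.96 CPM in PaPE-1 livers, against 10.6, 9.69 and 10.04 CPM in vehicle livers. Every PaPE-1 library was above every vehicle library, and the log2 fold change was 0.82 (SE 0.18, adjusted p = 0.0707 in edgeR). Ndufb10, an accessory subunit of the far end of the membrane arm, had 196, 164 and 188 CPM in PaPE-1 livers, against 126, 117 and 121 CPM in vehicle livers. Its groups did not overlap either, at 0.59 (SE 0.16, adjusted p = 0.0849 in edgeR). Ndufa2, a matrix arm subunit with a thioredoxin fold, had 84.2, 76.5 and 103 CPM in PaPE-1 livers, against 56.7, 48.5 and 55.1 CPM in vehicle livers. The groups were apart, at 0.72 (SE 0.19, adjusted p = 0.0906 in edgeR). Ndufb4, which like Ndufa2 was among the complex I genes the study followed by PCR, had 12.7, 12.4 and 17.2 CPM in PaPE-1 livers, against 8.95, 7.42 and 9.70 CPM in vehicle livers. It stood at 0.69 (SE 0.21) with an adjusted p of 0.107 in edgeR, and Ndufb7 at 0.56 (SE 0.15) with 0.0916.

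The core subunits lay between -0.05 and 0.54. Ndufs7 and Ndufs8, which hold iron-sulfur clusters next to the ubiquinone site, were at 0.54 and 0.42, Ndufv2 at 0.45, Ndufs3 at 0.44 and Ndufv1 at 0.25. Ndufs1, which carries a chain of iron-sulfur clusters, had 151, 167 and 150 CPM in PaPE-1 livers, against 177, 144 and 163 CPM in vehicle livers. The groups overlapped at -0.05 (95% interval -0.37 to 0.28), and Ndufs1 was the single subunit below 0. Medians by role were 0.42 for the 7 core subunits, 0.48 for the 9 accessory subunits of the matrix arm and 0.50 for the 20 of the membrane arm. Ndufab1, the acyl carrier protein found in both arms, was at 0.30, Ndufa4 at 0.46, Ndufa4l2 at 0.16 and Ndufs6b at 0.15, with unadjusted p under 0.05 for Ndufa4 alone of these 4 (0.0204 in edgeR).

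Among the assembly factors, Ndufaf3, which works with Ndufaf4 on the ubiquinone-binding module, was at 0.51 (SE 0.18, adjusted p = 0.14 in edgeR). Ndufaf4 itself was at 0.36 (SE 0.24), with 60.9 CPM in WP11 and 34.9 and 39.8 CPM in the other PaPE-1 livers, against 39.0, 33.6 and 32.8 CPM in vehicle livers, and was the assembly factor whose groups overlapped. Ndufaf6 was at 0.43, Ndufaf2, a chaperone of late assembly, at 0.40, Ndufaf5, which modifies Ndufs7, at 0.28, Ndufaf1, of the membrane arm assembly complex, at 0.25 and Ndufaf7, a methyltransferase, at 0.17. Of 10 further assembly factors outside the Ndufaf names, 9 were tested and none passed an adjusted p of 0.05. Their median was 0.23, from -0.15 for Tmem186 to 0.51 for Dmac1.

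**Figure D1:**
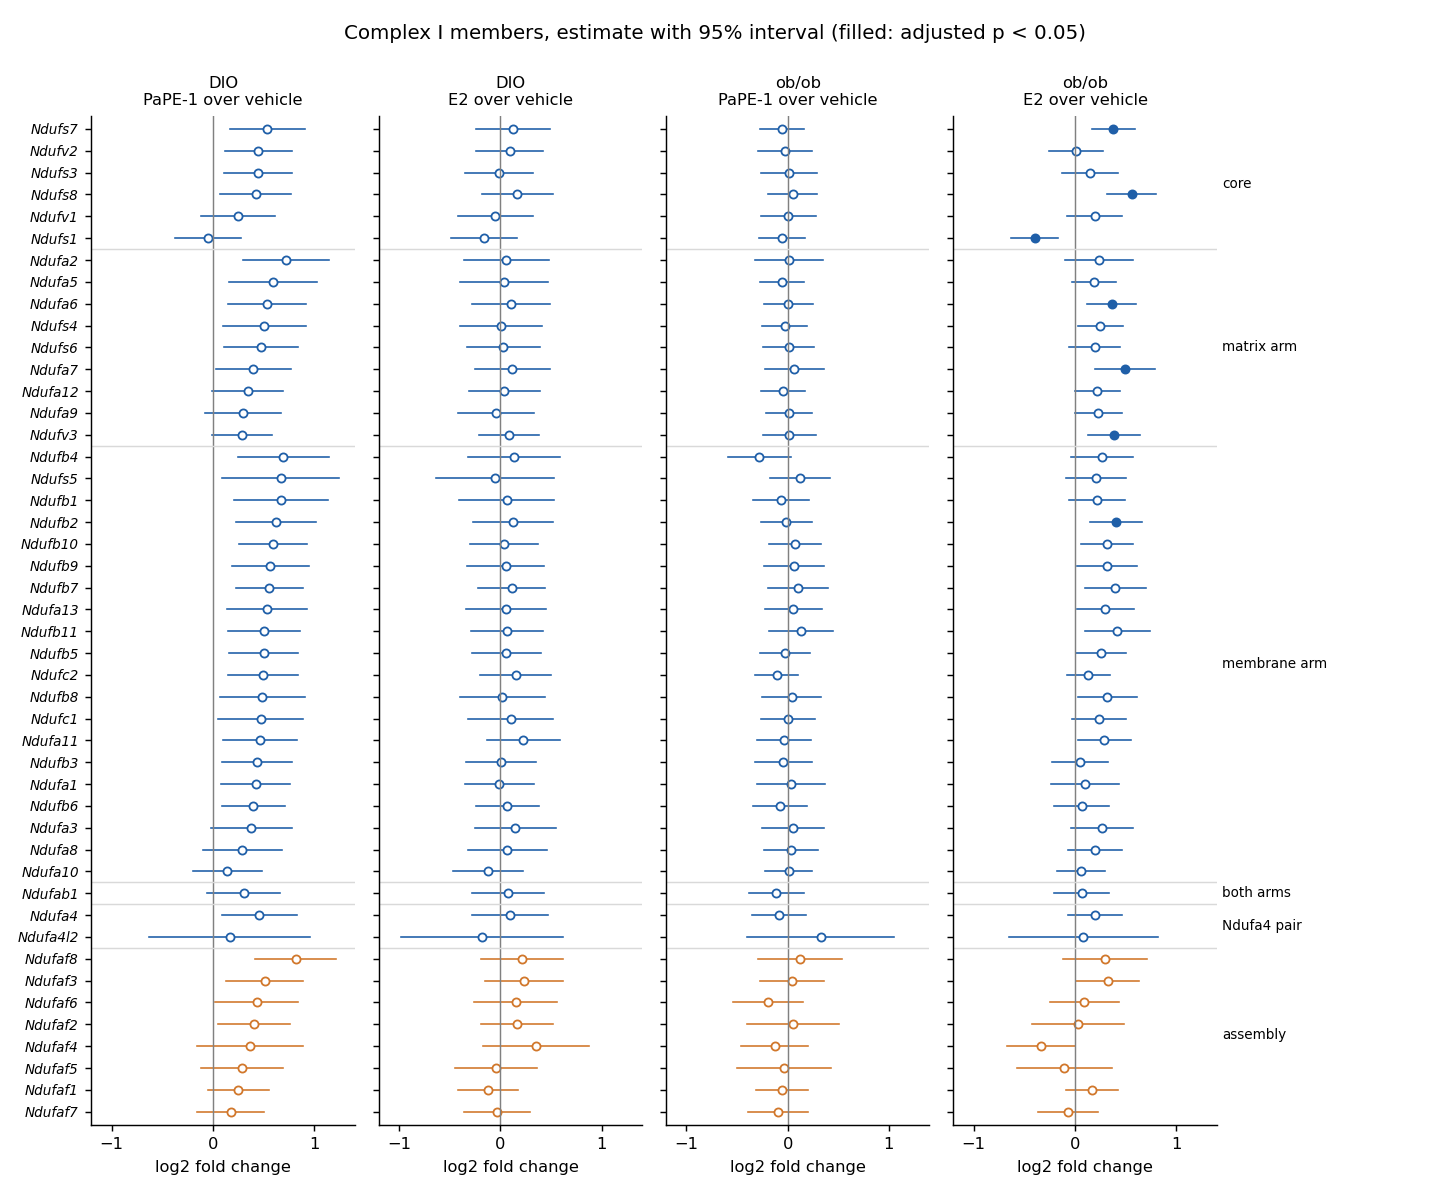
Log2 fold change (x axis, edgeR) with its 95% interval for members with enough reads in both models, by role, for each ligand over vehicle; filled points passed an adjusted p of 0.05. The PaPE-1 estimates of DIO liver lie right of 0 for every member drawn but Ndufs1, and the 7 filled points are all in ob/ob liver with E2.

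The E2 libraries enter this comparison through the shared estimate of spread, the scaling and the filter that sets which genes are tested, and the count of members called changed with them. With the PaPE-1 and vehicle libraries fitted alone, 12 members were higher, among them Ndufaf8, Ndufb10, Ndufa2 and Ndufb4, against 3.43% of all genes. DESeq2's Wald test on all 9 libraries called 8 members higher, against 3.82% of all genes, and limma voom called 0. Without the E2 library WE3, 11 members were higher (2.74% of all genes), and without WE14, 2 were (0.871%). None was lower in any of these.

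Gene length moved with the fold change in this comparison, and the members are short. The 40 subunits had a median summed exon length of 922 bases, from 339 for Ndufb1 to 3657 for Ndufs1, and the 8 assembly factors one of 2004 bases, against 3633 bases over all genes tested. Across the 13884 genes, which are not independent, Spearman's correlation of log2 fold change with length was -0.52, and across the 48 members it was also -0.52. Genes of up to 750 bases had a median of 0.45, against 0.53 for the 19 members among them. Longer genes of up to 1500 bases had 0.35, against 0.43 for 14 members, and those between 1500 and 3000 bases had 0.13, against 0.30 for 12 members. Between 3000 and 6000 bases all genes had -0.09, against 0.36 for the 3 members there, Ndufs1 (-0.05), Ndufaf4 (0.36) and Ndufaf6 (0.43). Over 6000 bases, where no member lies, the median of all genes was -0.25.

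With each library's length trend removed by a loess curve, a step that would also take away any effect of a ligand that follows gene length, the subunits' median was 0.15 and the assembly factors' median stood at 0.30, against 0.05 for all genes tested. Above 0 were 36 of 40 subunits and 8 of 8 assembly factors, against 56.7% of all genes. At an unadjusted p under 0.05 in edgeR 4 subunits and 2 assembly factors were higher and none lower. Of all genes 10.5% were higher and 4.56% lower. PaPE-1 libraries lay wholly above vehicle libraries in 9 of 40 subunits and 4 of 8 assembly factors, against 14.9% of all genes. Ndufaf8 was then at 0.44 (SE 0.13) and Ndufaf6, whose exons sum to 5036 bases, at 0.60 (SE 0.20), with adjusted p of 0.177 and 0.198 in edgeR. Of the subunits, Ndufa11 was at 0.44 (SE 0.15), Ndufb8 at 0.43 (SE 0.18), Ndufa2 at 0.35 (SE 0.14) and Ndufs1 at 0.04 (SE 0.15).

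**Figure D2:**
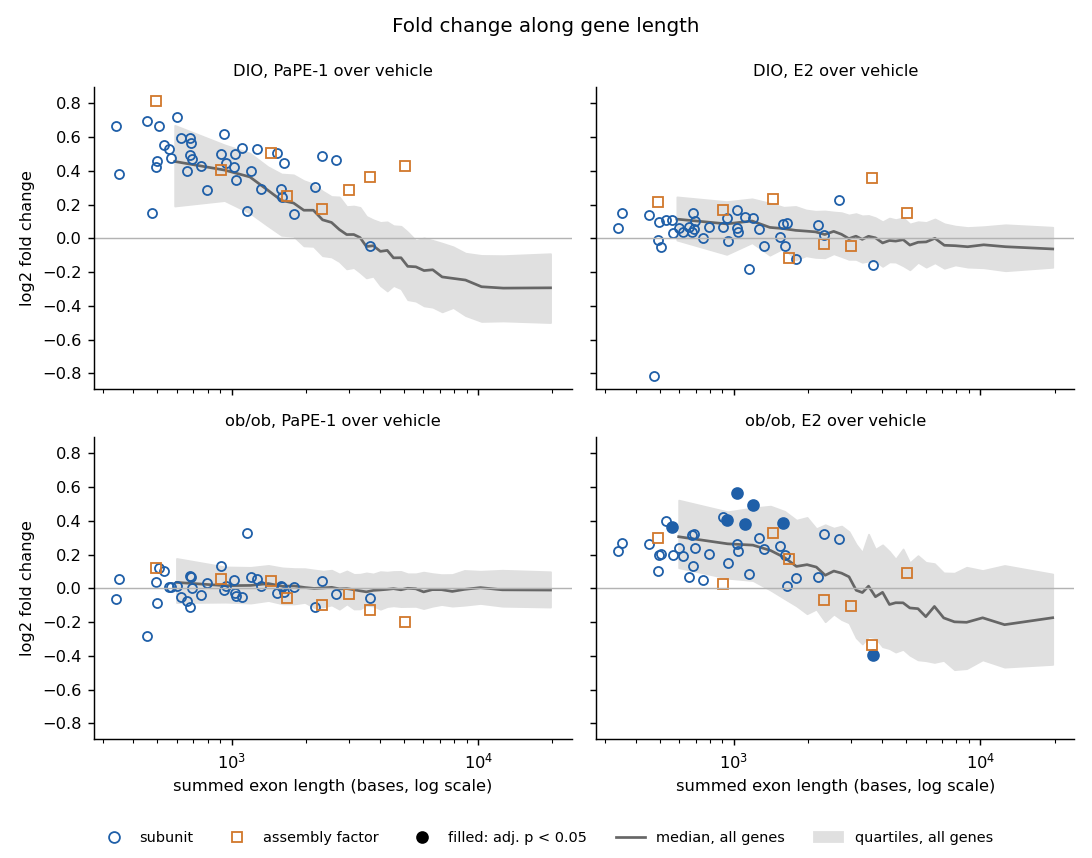
Log2 fold change over vehicle (y axis) against summed exon length in bases (x axis, log scale) for the members, with the median (line) and quartiles (band) of all genes tested in 30 bins of length. In DIO liver with PaPE-1 and in ob/ob liver with E2 the line falls with length and most members lie near it at its short end, and Ndufs1, at 3657 bases, lies lowest of the subunits in both.

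The libraries can be read one by one. Set against the mean vehicle library, the median log2 CPM of the subunits was 0.43, 0.37 and 0.54 in the PaPE-1 livers WP11, WP12 and WP24, against 0.09, -0.13 and 0.03 in the vehicle livers WV7, WV8 and WV9. That of the assembly factors was 0.49, 0.22 and 0.37 in PaPE-1 livers, against 0.07, -0.06 and -0.00 in vehicle livers. Subunits and assembly factors both stood apart from vehicle, and the subunit median minus the assembly median was 0.09 ± 0.12 in PaPE-1 livers and -0.01 ± 0.05 in vehicle livers (SD, n = 3 each), which overlap. With the length trend removed the subunits gave 0.06, 0.17 and 0.26 in PaPE-1 livers, against 0.13, -0.09 and -0.03 in vehicle livers, and the groups overlapped. The assembly factors gave 0.31, 0.11 and 0.29 in PaPE-1 livers, against 0.11, -0.03 and -0.06 in vehicle livers, and the lowest PaPE-1 liver was just above the highest vehicle liver.

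The length trend itself differed between libraries. Spearman's correlation of relative log2 CPM with length across genes was -0.49, -0.42 and -0.39 in PaPE-1 livers, against 0.06, 0.15 and -0.24 in vehicle livers. What set the trend was not tested. The 10 hepatocyte markers summed to 116402 to 142042 CPM in PaPE-1 livers, against 91605 to 102282 CPM in vehicle livers, and the 8 stellate markers to 289 to 314 CPM, against 345 to 370 CPM. None of these 18 markers passed an adjusted p of 0.05 or was at 0, and their part in the complex I result was not tested.

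E2 in DIO liver gave no call among the members. The subunits had a median log2 fold change of 0.06, with 30 of 40 above 0. The assembly factors had one of 0.16, with 5 of 8 above 0, against 51.4% of all genes. In edgeR 0 members passed an adjusted p of 0.05 (0% of all genes), 0 had an unadjusted p under 0.05 (2.72% of all genes higher and 2.5% lower), and DESeq2 and limma voom also called 0. The E2 livers differed widely among themselves. Their subunit medians were -0.32 in WE3, 0.35 in WE14 and 0.07 in WE18, a spread that covers all 3 vehicle livers and ends just under WP12 (0.37), and their correlations with length were 0.25, -0.45 and -0.20. Among the E2 livers the one with the highest subunit median had the steepest fall with length, and the one with the lowest had a rise. The PaPE-1 livers were not so ordered. There WP24, with the highest subunit median (0.54), had the weakest correlation with length (-0.39), and WP11, at 0.43, the strongest (-0.49). What links the 2 values was not tested. Without the length trend the subunit medians of the E2 livers were -0.13 in WE3, 0.12 in WE14 and -0.01 in WE18. The assembly factors were at -0.15, 0.22 and 0.18 as counted. The smallest p of a subunit was that of Ndufs6b (log2 fold change -0.81, SE 0.44), which had 4, 8 and 6 reads in E2 livers, against 12, 12 and 9 in vehicle livers. All 3 E2 counts were below every vehicle count, and in 5.52% of all genes every E2 library lay below every vehicle library. Ndufa11, of the membrane arm, was at 0.23 (SE 0.17). The core subunits ran from -0.16 for Ndufs1 (SE 0.15) to 0.17 for Ndufs8, with Ndufs7 at 0.12, Ndufv2 at 0.09, Ndufs3 at -0.02 and Ndufv1 at -0.05. Ndufb4 was at 0.14, Ndufa4 at 0.10, Ndufab1 at 0.08, Ndufa2 at 0.06 and Ndufa4l2 at -0.18. Among the assembly factors Ndufaf4 (0.35, SE 0.24) and Ndufaf3 (0.23, SE 0.18) had the smallest p, and Ndufaf8 was at 0.21, Ndufaf2 at 0.17, Ndufaf6 at 0.15, Ndufaf7 at -0.03, Ndufaf5 at -0.04 and Ndufaf1 at -0.12. Kupffer cell markers summed to 536 to 744 CPM in E2 livers, against 367 to 480 CPM in vehicle livers, with 0 of 8 past an adjusted p of 0.05. The hepatocyte markers, raised beside vehicle in PaPE-1 livers, summed to 110672 to 138746 CPM in E2 livers. In vehicle livers they summed to 91605 to 102282 CPM, and 0 of 10 passed. The part of either list in these values was not tested.

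PaPE-1 set beside E2 in DIO liver had subunit and assembly medians of 0.42 and 0.28. Every tested member was above 0, against 48.1% of all genes. No member passed an adjusted p of 0.05, and of all genes 0.0216% were higher. At an unadjusted p under 0.05 in edgeR, 24 subunits and 2 assembly factors were higher, against 8.41% of all genes, while DESeq2 and limma voom called 0 at an adjusted p. Ndufb10 (0.55, SE 0.16) and Ndufa2 (0.66, SE 0.19) had the smallest p, both with an adjusted p of 0.184 in edgeR. Leaving out WE14, the E2 library with the high subunit median, gave 16 members higher, against 2.56% of all genes. Once the length trend was taken out the subunit median was 0.17 and the assembly median 0.19, against 0.03 for all genes. At an unadjusted p under 0.05 in edgeR, 6 subunits and 1 assembly factor were then higher, against 7.89% of all genes.

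**Figure D3:**
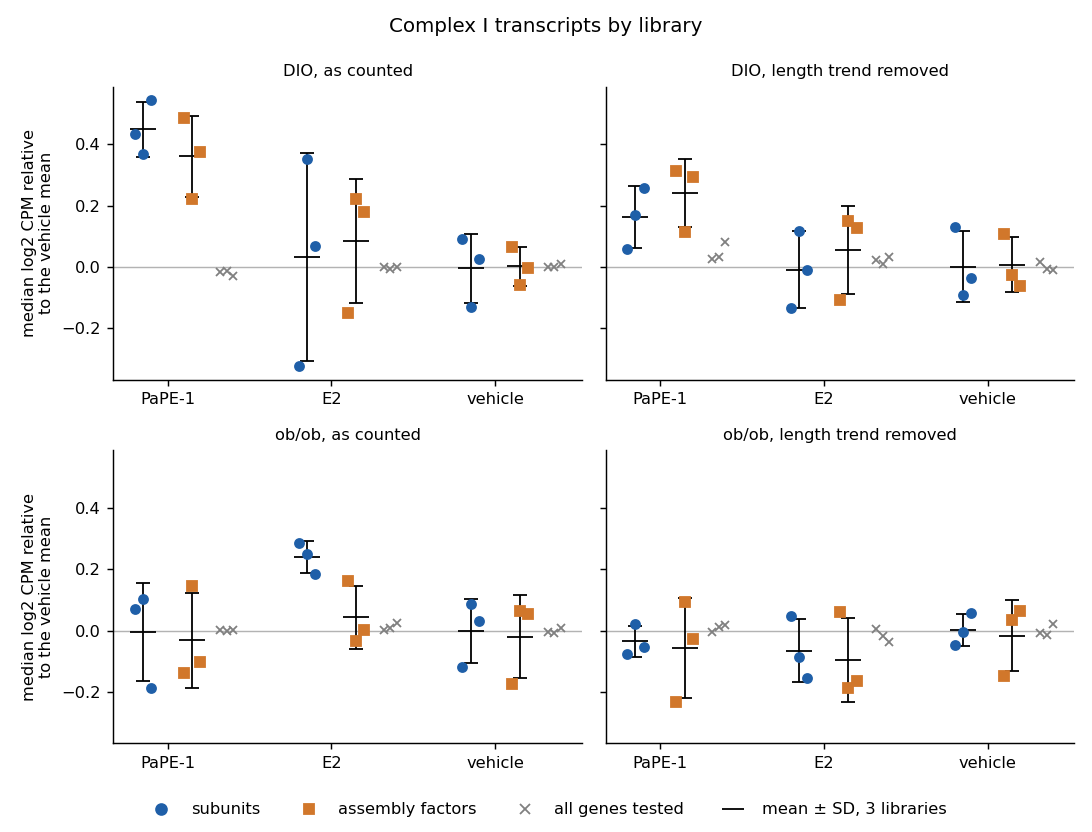
Median log2 CPM of the subunits (circles), the assembly factors (squares) and all genes tested (crosses) per library (y axis), set against the vehicle mean, with mean and SD of 3 libraries, as counted and with each library's length trend removed. In DIO liver the PaPE-1 libraries reach 0.54 as counted and 0.26 with the trend removed for subunits, and the 3 E2 libraries spread from -0.32 to 0.35.

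In ob/ob liver PaPE-1 left the members close to vehicle. The subunits had a median log2 fold change of 0.01, with 23 of 39 above 0. The assembly factors had one of -0.04, with 3 of 8 above 0, against 49.7% of all genes. In edgeR 0 members passed an adjusted p of 0.05 (0% of all genes lower, and none higher), 0 had an unadjusted p under 0.05 (0.998% of all genes higher and 1.65% lower), and DESeq2 and limma voom called 0. Ndufb4 had the smallest p, with 16.6, 16.9 and 13.6 CPM in PaPE-1 livers, against 15.8, 22.1 and 19.4 CPM in vehicle livers. The groups overlapped, at -0.28 (SE 0.14). Ndufc2, of the membrane arm, was at -0.11 (SE 0.10), with every PaPE-1 library below every vehicle library, as in 2.9% of all genes. Ndufa4l2 was at 0.33 (SE 0.34). The core subunits ran from -0.06 for Ndufs1 to 0.05 for Ndufs8, and Ndufa2 was at 0.01, Ndufa4 at -0.08 and Ndufab1 at -0.11. Of the assembly factors Ndufaf6 (-0.20, SE 0.16) and Ndufaf4 (-0.13, SE 0.16) had the smallest p, and the others lay between -0.10 for Ndufaf7 and 0.12 for Ndufaf8. The PaPE-1 livers had subunit medians of 0.07, 0.10 and -0.19, against -0.12, 0.09 and 0.03 in vehicle livers, and the low one, L16, was the one whose correlation with length was positive (0.25).

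Calls with E2 in ob/ob liver went in both directions among the subunits, as they did among all genes. Of 39 subunits 37 had a log2 fold change above 0, with a median of 0.23. Of 8 assembly factors 5 did, with a median of 0.06, against 50.6% of all genes above 0. At an adjusted p under 0.05, 6 subunits rose, against 9.81% of all genes, 1 fell, against 12.3% of all genes, and no assembly factor did either. The 6 were Ndufs8, Ndufs7, Ndufa7, Ndufb2, Ndufv3 and Ndufa6, and the one that fell was Ndufs1. Every E2 library lay above every vehicle library in 21 subunits and 1 assembly factor, against 20.7% of all genes.

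Ndufs8 rose most, with 112, 112 and 101 CPM in E2 livers, against 69.8, 76.8 and 73.5 CPM in vehicle livers. The groups did not overlap, and the log2 fold change was 0.56 (SE 0.11, adjusted p = 0.00622 in edgeR). Ndufs7 had 122, 124 and 115 CPM in E2 livers, against 88.5, 96.0 and 92.1 CPM in vehicle livers, at 0.38 (SE 0.10, adjusted p = 0.0177 in edgeR). Both proteins hold the iron-sulfur clusters that lead to ubiquinone. Ndufs1 had 111, 106 and 105 CPM in E2 livers, against 141, 135 and 148 CPM in vehicle livers. It fell by 0.40 on the log2 scale (SE 0.11, adjusted p = 0.0193 in edgeR). Every E2 library lay below every vehicle library, as in 20.8% of all genes. Of the accessory subunits of the matrix arm, Ndufa7 was at 0.49, Ndufv3 at 0.39 and Ndufa6 at 0.36, with adjusted p of 0.0221, 0.0357 and 0.0363 in edgeR, and of the membrane arm Ndufb2 was at 0.40 with 0.0274. No other core subunit passed, with Ndufv1 at 0.20, Ndufs3 at 0.15 and Ndufv2 at 0.01. Ndufa2 was at 0.24 and Ndufb4 at 0.27, with adjusted p of 0.289 and 0.189 in edgeR, and Ndufa4 was at 0.20, Ndufa4l2 at 0.08 and Ndufab1 at 0.07.

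The assembly factors were mixed. Ndufaf3 was at 0.33 (SE 0.14, adjusted p = 0.116 in edgeR) and its partner Ndufaf4 at -0.34 (SE 0.16, adjusted p = 0.133 in edgeR). Ndufaf8 was at 0.30, Ndufaf1 at 0.17, Ndufaf6 at 0.09, Ndufaf2 at 0.03, Ndufaf7 at -0.07 and Ndufaf5 at -0.10. Of the 9 further assembly factors tested, Ecsit rose (0.39, SE 0.13, adjusted p = 0.0467 in edgeR, against the 9.81% of all genes that rose) and the other 8 did not pass. With the length trend removed 0 of the 9 passed in edgeR, and at an unadjusted p under 0.05 there was 1 above and 1 below vehicle. The same rule took in 14.7% of all genes above vehicle and 19.1% below it. The subunit median minus the assembly median was 0.20 ± 0.08 in E2 livers, with 0.12, 0.28 and 0.18 in L1, L12 and L19, against 0.02 ± 0.04 in vehicle livers, where it was 0.06, 0.02 and -0.02 (SD, n = 3 each). These ranges did not overlap as counted. Freed of the length trend the difference was 0.03 ± 0.06 in E2 livers and 0.02 ± 0.07 in vehicle livers, which overlapped.

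**Figure D4:**
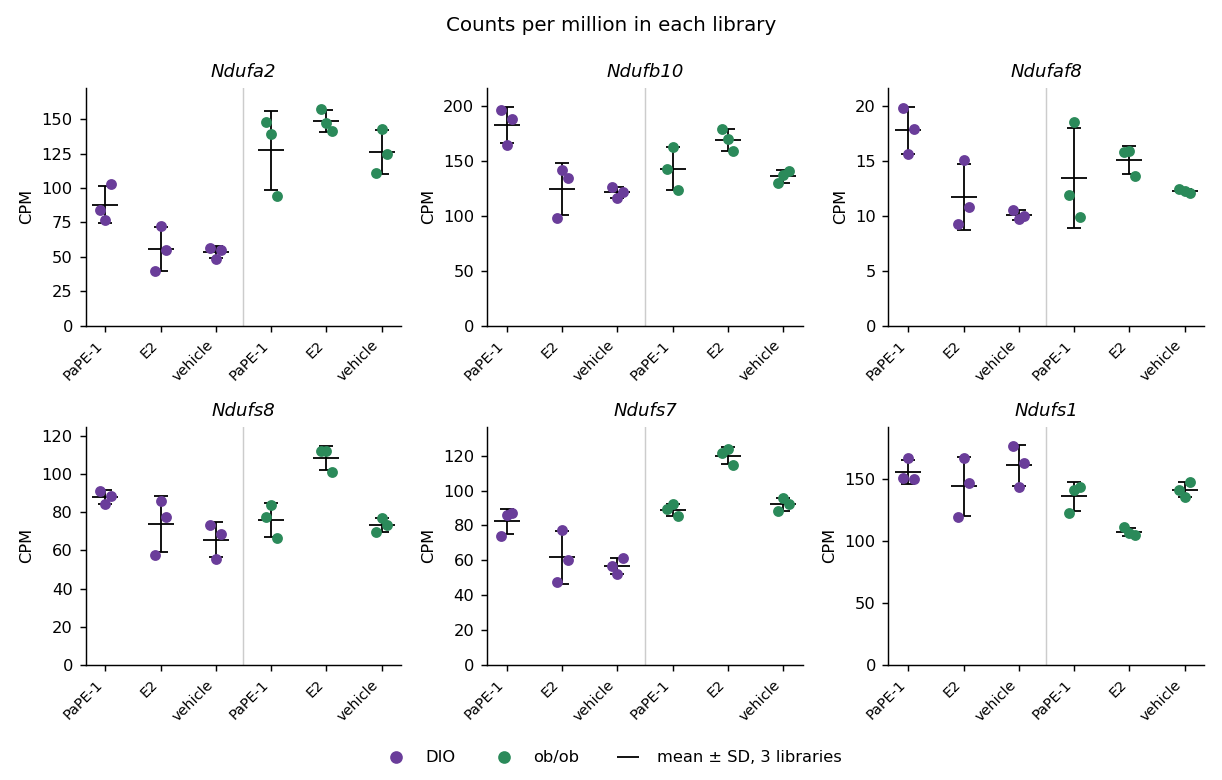
CPM (y axis, from 0) of 6 members in each library, with the mean and SD of 3 libraries per group. Ndufa2, Ndufb10 and Ndufaf8 show the PaPE-1 livers of the DIO model above their vehicle livers, and Ndufs8, Ndufs7 and Ndufs1 the E2 livers of the ob/ob model apart from theirs, with Ndufs1 at 105 to 111 CPM below 135 to 148 CPM.

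Fold change fell with gene length in this comparison as well, and what set the trend was not tested. Spearman's correlation of log2 fold change with length was -0.32 across the 13433 genes and -0.32 across the 47 members. Genes of up to 750 bases had a median of 0.31, against 0.23 for the 18 members among them, and longer genes of up to 1500 bases 0.25, against 0.28 for 14 members. With the length trend removed the subunit median was -0.08 and the assembly median -0.10. Above 0 were 12 of 39 subunits and 2 of 8 assembly factors, against 48.3% of all genes. The rises of Ndufs7, Ndufa7, Ndufb2, Ndufv3 and Ndufa6 no longer passed, at 0.11, 0.24, 0.12, 0.18 and 0.02, and Ndufs8 stood at 0.28 (SE 0.10, adjusted p = 0.0615 in edgeR). Ndufs1 alone passed, at -0.37 (SE 0.11, adjusted p = 0.0284 in edgeR), against 10.3% of all genes lower. The medians of the E2 livers were 0.05, -0.09 and -0.16 for the subunits, against -0.05, -0.00 and 0.06 in vehicle livers.

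The calls were sensitive to single libraries. Without the E2 library L12 only Ndufs8 passed, without L19 only Ndufs8 and Ndufs7, without the vehicle library L3 only Ndufs8 and Ndufs1, and without the vehicle library L13 only Ndufs8. Calls over all genes fell as well, from 1318 higher and 1654 lower with every library kept. They were 344 and 434 without L12, 634 and 812 without L19, 967 and 1194 without L3, and 708 and 1017 without L13. Markers of other cells moved in the same libraries. Of neutrophil markers 7 of 8 tested (9 listed) were higher, with summed levels of 93.5 to 361 CPM in E2 livers, against 6.03 to 7.24 CPM in vehicle livers. Of 8 endothelial markers 7 were higher (256 to 317 CPM in E2 livers, against 150 to 167 CPM) and of 8 Kupffer cell markers 4 (448 to 621 CPM in E2 livers, against 287 to 388 CPM). Of 10 hepatocyte markers 6 were higher and 1 lower, with 149298 to 165317 CPM in E2 livers, against 89575 to 119268 CPM in vehicle livers. No marker of these lists was at 0 throughout, and their part in the complex I result was not tested.

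PaPE-1 set beside E2 in ob/ob liver shares the E2 libraries with the comparison before, and its subunit median was -0.24 and its assembly median -0.10. Ndufs8, Ndufs7, Ndufb4, Ndufb2, Ndufa7, Ndufa6 and Ndufv3 were lower with PaPE-1 than with E2, against 7.45% of all genes lower, and Ndufs1 was higher, against 10% of all genes higher. Ndufb4 had 16.6, 16.9 and 13.6 CPM in PaPE-1 livers, against 22.4, 21.4 and 24.8 CPM in E2 livers. It was lower in every PaPE-1 library, as in 18.2% of all genes, at -0.55 (SE 0.14, adjusted p = 0.021 in edgeR). After removal of the length trend the subunit median was 0.02, no member passed in edgeR, 1 was higher and 2 were lower at an unadjusted p under 0.05 (17.9% and 13.1% of all genes), and Ndufs1 was at 0.33 (SE 0.11, adjusted p = 0.0509 in edgeR). Without the E2 library L12, 0 members passed in edgeR.

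The effect of PaPE-1 was set between the models as an interaction in a fit over the 18 libraries. The subunits' median difference, DIO minus ob/ob, was 0.48 and the assembly factors' 0.42, against -0.00 over 14171 genes. No member passed an adjusted p of 0.05, nor did any gene (0%), and at an unadjusted p under 0.05 in edgeR 21 of 39 subunits and 3 of 8 assembly factors did, against 12.1% of all genes. DESeq2 called 1 member higher, against 0.628% of all genes, and limma voom 0. Ndufb4 differed by 0.99 (95% interval 0.45 to 1.52, adjusted p = 0.214 in edgeR) and Ndufaf8 by 0.71 (0.12 to 1.29, adjusted p = 0.321). Without the length trend the medians were 0.19 and 0.29, against 0.05 over all genes. At an unadjusted p under 0.05 in edgeR, 4 of 39 subunits and 1 of 8 assembly factors then passed, against 1231 of 14171 genes. As counted, the effect of E2 differed between the models by a median of -0.17 for subunits and 0.06 for assembly factors. The median over all genes was -0.00. With the length trend removed the medians were 0.03 for subunits and 0.14 for assembly factors, against 0.05 over all genes. No member passed in edgeR, DESeq2 or limma voom, against 0.0141% of all genes in edgeR. At an unadjusted p under 0.05 in edgeR, 0 subunits and 1 assembly factor did, against 16.9% of all genes.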

How the data were processed

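Liver RNA of 18 mice was made into poly-A selected, stranded libraries. The authors deposited raw counts per gene for each model, made with STAR (2.7.6a, from the submitters' processing notes) and, per the file headers, with featureCounts (2.0.0, strand option 2) on RefSeq genes of GRCm39; the paper's methods name other tools. The deposited tables of the authors' DESeq2 comparisons were not used. The labels speak of biological replicates for each treatment.

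Tests used edgeR (4.0.16; in R 4.3.3; filterByExpr, TMM, robust quasi-likelihood test, one mean per group, 9 libraries per model, 18 for interactions). The threshold was an adjusted p of 0.05. Alternatives were DESeq2 (1.42.0) size factors and Wald test, limma (3.58.1) voom, no filter, at least 10 counts in every library, the compared groups alone, each library left out, and a loess length trend (span 0.5, log2 CPM with a prior count of 2) taken from each library as an offset. Exon length is the Length column of the tables. An exact permutation of 3 against 3 cannot give a p below 0.1. The main edgeR fit was run on simulated counts with known changes for PaPE-1 against vehicle in each model. The removal of the length trend and the interaction were not simulated. Each p-value sets a difference against a spread between livers that is estimated over all groups of the fit, with 3 livers a group.

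Members and gene lists were chosen with earlier results of these data known. The text gives in full nuclear core subunits, Ndufb4, Ndufa2, Ndufa4, Ndufa4l2, Ndufab1, every Ndufaf gene, members past the threshold, and for each ligand against vehicle the 3 subunits and 2 assembly factors with the smallest p. A member kept in the counts and medians is not reported here by name or drawn singly.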

Additional observations from a re-analysis of the deposited data

How the results depend on the processing

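No paired analysis was possible because the labels give no replicate number that groups share. For PaPE-1 against vehicle in DIO liver the members called, 0 in edgeR, were 8 with DESeq2's Wald test, 3 with no filter on low counts, 12 with the compared groups alone and 0 to 11 with 1 library left out, where only the loss of WE3 or WE14 gave any. For PaPE-1 against E2 in DIO liver the count of 0 ran from 0 to 16 with 1 library left out, and WE14 alone made the difference. For E2 against vehicle in ob/ob liver the count of 7 was 1 with the length trend removed and 1 to 10 with 1 library left out, being 1 or 2 without L12, L19, L3 or L13. Without each of those libraries fewer calls were made over all genes too. For PaPE-1 against E2 in ob/ob liver the count of 8 was 5 with no filter, 0 with the length trend removed, 4 with the compared groups alone and 0 to 7 with 1 library left out, lowest without L12, then L16 and L19. Subunit medians with the length trend removed were 0.15, 0.17, -0.077 and 0.019 in these 4 comparisons, in that order. For the PaPE-1 interaction DESeq2 called 1 member. No member called for a ligand against vehicle changed sign under any alternative run. The cause of these changes was not tested. The number of livers, 3 a group, limits what the tests can show.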
